A study of Mus musculus with 8 samples.

Results

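The troponin subunit genes of the mouse were followed through the differentiation of C2C12 myoblasts. The set is the 8 genes that encode a subunit of troponin: *Tnnc1* and *Tnnc2* for troponin C, *Tnni1*, *Tnni2* and *Tnni3* for troponin I, and *Tnnt1*, *Tnnt2* and *Tnnt3* for troponin T. They were taken by name, as the genes of the complex, and all 8 had a row among the 27179 genes of the deposited expression table. C2C12 is an immortalized mouse myoblast line, so all libraries come from a single line and from no animal. Growth medium (GM) libraries came from cells at 50% confluence in high glucose DMEM with 10% fetal bovine serum. The 3d DM libraries came from cells that passed 90% confluence and then spent 3 days in the same base medium with 2% horse serum. Each state has 2 input libraries, which are RNA-seq of polyadenylated RNA, and 2 libraries of RNA fragments precipitated with an antibody against N6-methyladenosine (m6A). No label says that replicates came from separate cultures, so p-values rest only on the spread between these libraries, which may be technical. The main test took that spread from genes of similar level and hardly from a gene's own replicates.

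Troponin is the calcium switch of striated muscle. It sits on the thin filament, where troponin T anchors the complex to tropomyosin, troponin I holds back the interaction of actin and myosin, and troponin C releases that block when it binds calcium. Each subunit has fibre-type versions. *Tnnc1*, *Tnni1* and *Tnnt1* are the slow skeletal genes, and *Tnnc1* also serves the heart. *Tnnc2*, *Tnni2* and *Tnnt3* are the fast skeletal genes. *Tnni3* and *Tnnt2* encode the cardiac versions of the adult, and *Tnnt2* is also used by embryonic skeletal muscle.

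The m6A mark is placed mainly at adenosines in the motif DRACH, in which D is A, G or U, R is A or G and H is A, C or U. The coding stretches shown here are those of 90 nt with the most DRACH motifs among bases that lay inside a called m6A peak in all 4 peak lists, given for the 3 troponin T genes because their peaks had the highest folds of the family and the largest part of the transcript covered in all 4 lists. They run 5′ to 3′ on the coding strand of the mm10 reference, written as DNA, and capitals mark DRACH, which can overlap. The *Tnnt1* stretch holds 4 motifs at nt 547 to 636 of its reference transcript and spans chr7:4508502-4509018 with its introns, on the minus strand. The *Tnnt2* stretch holds 5 at nt 402 to 491 (chr1:135847756-135848053, plus strand), and that of *Tnnt3* holds 7 at nt 603 to 692 (chr7:142512326-142512581, plus strand).
Tnnt1: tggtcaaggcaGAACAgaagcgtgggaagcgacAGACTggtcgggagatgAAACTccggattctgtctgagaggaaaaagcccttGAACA
Tnnt2: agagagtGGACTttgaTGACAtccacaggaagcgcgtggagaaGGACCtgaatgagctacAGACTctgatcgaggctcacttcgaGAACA
Tnnt3: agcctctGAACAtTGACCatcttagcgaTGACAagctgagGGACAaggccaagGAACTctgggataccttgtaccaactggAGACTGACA

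GGACT is a form of the motif that is often methylated. The reference transcripts of *Tnnc1* (721 nt), *Tnni1* (1150 nt) and *Tnni3* (912 nt) hold 2 each, that of *Tnnt2* (1200 nt) holds 1 and the other 4 hold none. Of 21405 mouse genes, 89.0% hold a GGACT in their longest protein-coding transcript, of any length from 500 nt, and the median was 1.02 per kb. Within bases covered by a peak in all 4 lists it occurred at 1 place in *Tnnt2*, near the start of the stretch above, and at 1 place in the 3′ UTR of *Tnnc1*. The latter has its adenosine at nt 652 of 721 (chr14:31211650-31211670, plus strand) and is shown with 8 bases on each side, GGACT in capitals.
Tnnc1: gcccttccGGACTttctctcc

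For DRACH as a whole, *Tnnt3* had 30.8 motifs per kb, above 98.9% of those genes, whose median was 20.3. The other 7 troponin transcripts had 18.3 to 23.0 per kb.

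The promoters of *Tnnc1* and *Tnnt2*, whose mRNA rose, and of *Tnni3*, whose mRNA did not pass the filter on low values, are shown for the 160 bases before the RefSeq start site (GRCm38.p6), on the coding strand. Capitals mark 2 motifs searched on both strands: the E-box CANNTG, to which myogenic factors such as MYOD1 and MYOG bind, with CAGCTG as the form counted separately within it, and CATTCC, to which TEAD factors bind. The first is chr14:31208152-31208311 (plus strand), the second chr1:135836174-135836333 (plus strand) and the third chr7:4522529-4522688 (minus strand).
Tnnc1: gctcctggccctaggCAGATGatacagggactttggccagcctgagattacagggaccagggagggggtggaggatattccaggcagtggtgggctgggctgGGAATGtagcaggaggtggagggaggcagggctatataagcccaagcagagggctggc
Tnnt2: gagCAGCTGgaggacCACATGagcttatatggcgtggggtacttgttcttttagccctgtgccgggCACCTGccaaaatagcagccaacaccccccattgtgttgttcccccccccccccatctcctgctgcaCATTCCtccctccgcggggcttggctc
Tnni3: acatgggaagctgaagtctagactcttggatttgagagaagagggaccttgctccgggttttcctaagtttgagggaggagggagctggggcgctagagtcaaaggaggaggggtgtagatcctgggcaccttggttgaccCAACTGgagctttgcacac

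RefSeq promoters of 250 bases before to 50 after the start were matched for 6 of the 8 genes, by symbol, with more than 1 start for *Tnni1* and *Tnnt2*. All 6 had a CANNTG, as had 72.1% of 27025 mouse promoters of the same length. *Tnnt2* had 5 at its upstream start and *Tnni1* had 4, and these were the only members with CAGCTG, which 16.1% of promoters hold. CATTCC was found in *Tnnc1* and at the upstream start of *Tnnt2*, against 14.6% of promoters. The promoters shown above include every one of the family with this motif. *Tnnc2*, *Tnni1* and *Tnnt1*, which also rose, had none, like *Tnni3*. The MEF2 and CArG boxes were searched in the same windows and no member matched either, against 3.26% and 1.57% of promoters. These are letter matches in a short window and describe no binding.

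The comparison of 3d DM with GM asks how far each subunit gene changes when proliferating myoblasts become myotubes. Expression is given as the deposited normalized value, which has no read unit. All 4 columns sum to about the same total, so the depth of a library is unknown. A single entry without a gene symbol made up 24.4% and 33.2% of the GM totals and 41.3% and 25.6% of the 3d DM totals. Levels relative to the total depend on that entry. Low values also recurred: among genes with values above 0 and under 25 in both GM libraries, 97.3% shared their exact pair with another gene. Between the GM and 3d DM libraries of replicate 1 the share was 35.6%, and of replicate 2 it was 39.7%. Small whole counts would recur as well, so how far replicates vary separately at this level cannot be seen. A gene was tested where at least 2 libraries reached 2 cpm relative to the column total, which is a value of 25.1. By this rule 11406 genes were tested, among them 7 of the 8 troponin genes, all with that level in every library. All 7 rose in 3d DM, at an adjusted p under 0.05 in limma over all tested genes, and in all 7 both 3d DM values lay above both GM values. Of all tested genes, 7.01% were called higher in 3d DM, 9.96% lower and 17% in either direction, and 16.8% had both 3d DM values above both GM values. The members' median log2 fold change was 5.75, against −0.22 over all tested genes. After rescaling by median-of-ratios factors the median of all genes was 0.01, and all 7 members were still called higher, with limma adjusted p-values of 0.00110 to 0.00786.

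**Figure D1:**
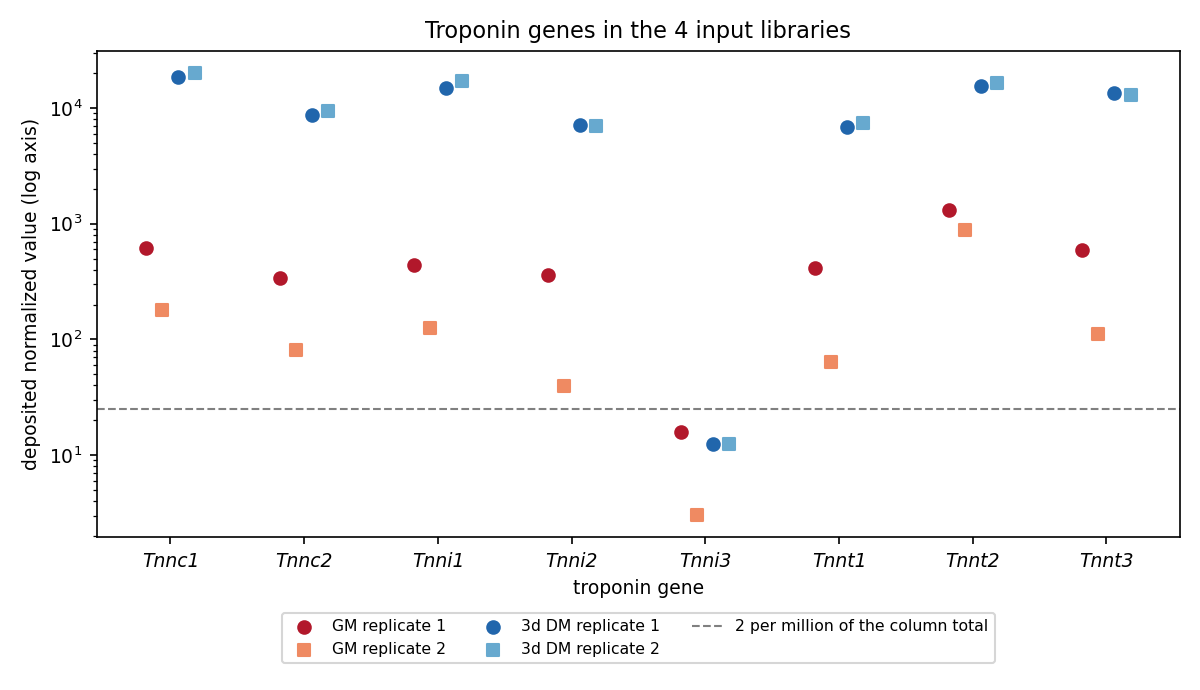
Deposited normalized value (log axis) of the 8 troponin genes in the 2 GM and 2 3d DM input libraries, 1 point per library, with a dashed line at 2 cpm of the column total. In 7 genes both 3d DM points lie far above both GM points, GM replicate 1 lies above GM replicate 2 in all 8, and *Tnni3* stays under the line in every library.

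The troponin C genes, which encode the calcium sensor, both rose. *Tnnc1* (slow and cardiac) had values of 611 and 179.7 in GM replicates 1 and 2 against 18429 and 20138 in the 3d DM replicates. *Tnnc2* (fast) had 342 and 81.3 in GM against 8657 and 9468 in 3d DM. The states were far apart in both genes: the lowest 3d DM value was 30.1 times the highest GM value for *Tnnc1* and 25.3 times for *Tnnc2*. The log2 fold changes in limma were 5.86 (SE 0.41, adjusted p = 1.57e-42) and 5.75 (SE 0.42, adjusted p = 4.92e-39).

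The skeletal troponin I genes, which encode the inhibitory subunit, also rose. *Tnni1* (slow) read 439 and 124 in GM against 14922 and 17243 in 3d DM. Its log2 fold change of 6.09 (SE 0.42, limma adjusted p = 4.46e-45) was the largest of the family, by less than 1 SE over *Tnni2* and *Tnnc1*. *Tnni2* (fast) read 361 and 39.2 in GM against 7078 and 7042 in 3d DM. Its GM libraries were the most unlike of any member, and its log2 fold change was 5.87 (SE 0.43, limma adjusted p = 1.42e-39).

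*Tnni3*, the cardiac troponin I gene, was listed at 15.97 and 3.03 in GM against 12.54 and 12.4 in 3d DM. These values stayed under 2 cpm of the column total in all 4 libraries, the 3d DM values lay between the GM values, and the gene was not tested. In a fit without the filter on low values its log2 fold change was 0.70 with an adjusted p of 0.659 in limma. The annotated gene overlaps *Dnaaf3* on the same strand, but no base of its reference transcript lies in a *Dnaaf3* exon.

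The troponin T genes, whose products join the complex to tropomyosin, rose less evenly. *Tnnt1* (slow) read 412 and 63.3 in GM against 6912 and 7464 in 3d DM, a log2 fold change of 5.46 (SE 0.43, limma adjusted p = 7.33e-35). *Tnnt3* (fast) read 597 and 111 in GM against 13508 and 12977 in 3d DM, a log2 fold change of 5.67 (SE 0.42, limma adjusted p = 3.18e-39). *Tnnt2*, the cardiac and embryonic gene, was the member with the closest GM libraries, at 1310.1 and 875. In 3d DM it read 15400.0 and 16409, and its log2 fold change of 3.89 (SE 0.41, limma adjusted p = 1.58e-19) was the lowest of the 7. Its lowest 3d DM value was 11.8 times its highest GM value, against 16.8 to 34.0 times in the other 6 tested members.

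All 8 members, the untested *Tnni3* included, were higher in GM replicate 1 than in GM replicate 2, as were 67.4% of all tested genes. The ratio was 1.497 in *Tnnt2*, 3.40 in *Tnnc1*, 3.53 in *Tnni1*, 4.21 in *Tnnc2*, 5.28 in *Tnni3*, 5.36 in *Tnnt3*, 6.51 in *Tnnt1* and 9.22 in *Tnni2*. The median log2 difference between the GM libraries was 2.06 over the tested members and 0.21 over all tested genes, and 10.2% of all tested genes differed by 1 or more in that direction. The members' 3d DM values lay close together, with ratios of replicate 1 over replicate 2 of 0.87 to 1.04. The median log2 difference between the 3d DM libraries was −0.11 over the tested members, against −0.51 over all tested genes. All 9 markers of myoblasts and myotubes, among them *Myog* and *Myh3*, were also higher in GM replicate 1, with a summed value of 25651 against 11281. None of the 5 markers of dividing cells was, with a summed value of 12713 against 14584. The part of differentiated cells in the members' GM values was not tested, and in bulk RNA fewer cells expressing a gene and less RNA per cell cannot be told apart.

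The errors in limma followed the level of a gene more than its own replicates. Computed from a member's own 4 values, the standard error of the log2 difference was 0.88 for *Tnnc1*, 1.03 for *Tnnc2*, 0.91 for *Tnni1*, 1.59 for *Tnni2*, 1.34 for *Tnnt1* and 1.21 for *Tnnt3*, each above the limma value, as in 25.3% of tested genes. Only for *Tnnt2* among the 7 was it below, at 0.29. An exact permutation test of any single gene cannot go under p = 0.333 with 2 libraries against 2. Without 3d DM replicate 1, the fit called 3 of the 7 members, namely *Tnnc1* (limma adjusted p = 0.0446), *Tnni1* (0.0446) and *Tnnt2* (0.0347), while the other 4 had limma adjusted p-values of 0.0511 to 0.0831. Without 3d DM replicate 2, *Tnni2* (0.0631) and *Tnnt1* (0.0544) lost the call in limma. Their fold changes hardly moved in these fits, in which the remaining 3d DM library is assumed to vary like GM.

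**Figure D2:**
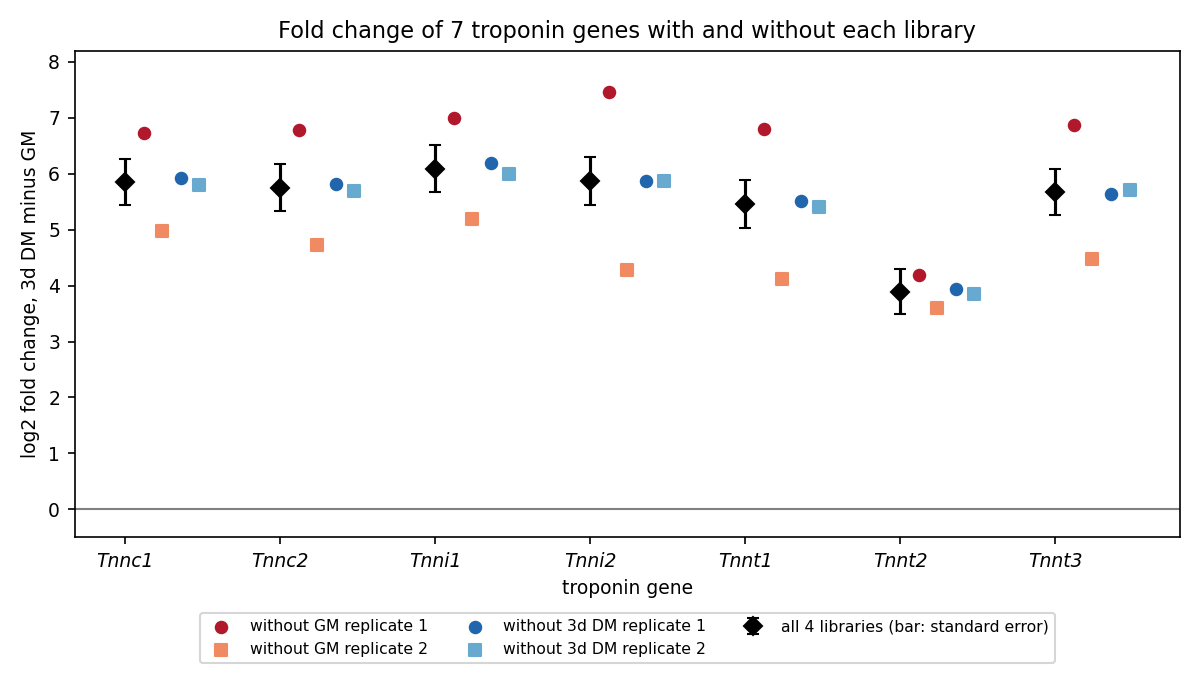
Log2 fold change of 3d DM over GM for the 7 tested troponin genes from all 4 libraries (diamonds, bars are limma standard errors) and with each library left out in turn (coloured points). All points lie above 3, the points without a GM library lie farthest from the diamonds, and those of *Tnnt2* lie closest together.

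Without GM replicate 1 the log2 fold changes ran from 4.18 in *Tnnt2* to 7.46 in *Tnni2*. Without GM replicate 2 they ran from 3.60 in *Tnnt2* to 5.19 in *Tnni1*. The size of the rise in *Tnni2* therefore depended on the GM library used by more than 3 log2 units, since the other fit gave 4.28, and in *Tnnt2* by less than 1.

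Levels of different genes were compared per kb of annotated exon. Taking the union of all annotated exons of a gene as its length, the 3d DM order was *Tnnc1* (18524 ± 1161 per kb, SD, n = 2), *Tnnc2* (11328 ± 717), *Tnnt3* (8365 ± 237), *Tnni2* (4716 ± 17.4), *Tnni1* (4467 ± 456), *Tnnt1* (3261 ± 177), *Tnnt2* (2052 ± 92.0) and *Tnni3* (6.04 ± 0.059). Of neighbours in this order, only *Tnni2* and *Tnni1* had overlapping libraries. In GM the means ran in another order, from *Tnnc1* (380 ± 293 per kb, SD, n = 2) over *Tnnc2* (265 ± 231), *Tnnt3* (224 ± 217), *Tnnt2* (141 ± 39.7), *Tnni2* (134 ± 152), *Tnnt1* (108 ± 112) and *Tnni1* (78.2 ± 61.8) to *Tnni3* (4.604 ± 4.44), and all neighbours overlapped except *Tnni1* and *Tnni3*. The order depended on the length. The exon union of *Tnnt2* is 7752 nt and its reference transcript 1200 nt, and with reference transcripts *Tnnt2* stood at 13254 ± 595 per kb in 3d DM (SD, n = 2), beside *Tnni1* (13985 ± 1427), *Tnnt3* (13150 ± 373) and *Tnnc2* (12946 ± 819), whose libraries overlapped. In 3d DM *Tnnc1* was highest with either length, at 26746 ± 1676 per kb with the reference transcript, and *Tnni3* lowest. In GM *Tnnt2* was highest with the reference transcript, at 1092 and 729 per kb, against 848 and 249 for *Tnnc1*.

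Within troponin C, the slow and cardiac *Tnnc1* made up 57.9% and 62.9% of troponin C per kb in the GM libraries and 62.1% and 62.0% in the 3d DM libraries, so the 3d DM shares lay between the GM shares. In troponin I, the slow *Tnni1* made up 32.9% and 55.6% in GM against 46.7% and 50.4% in 3d DM, again within the range of GM. *Tnni3* was 2.09% and 2.36% of troponin I in GM, and 0.0685% and 0.0631% in 3d DM.

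Within troponin T, the cardiac and embryonic *Tnnt2* made up 23.1% and 53.3% of troponin T in GM against 14.5% and 15.4% in 3d DM. The fast *Tnnt3* made up 51.4% and 33.2% in GM against 62.5% and 59.8% in 3d DM. For both genes the states did not overlap, and the exact permutation p was 0.333, the smallest that this design allows. With reference transcripts the *Tnnt2* share was higher throughout, at 52.4% and 80.9% in GM against 38.9% and 40.4% in 3d DM, again with both GM shares above both 3d DM shares. *Tnnt1* made up 25.5% and 13.5% in GM against 23.0% and 24.7% in 3d DM, so its states overlapped (exact permutation p = 1), and with reference transcripts they did not, at 19.2% and 6.83% in GM against 20.4% and 21.5% in 3d DM.

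**Figure D3:**
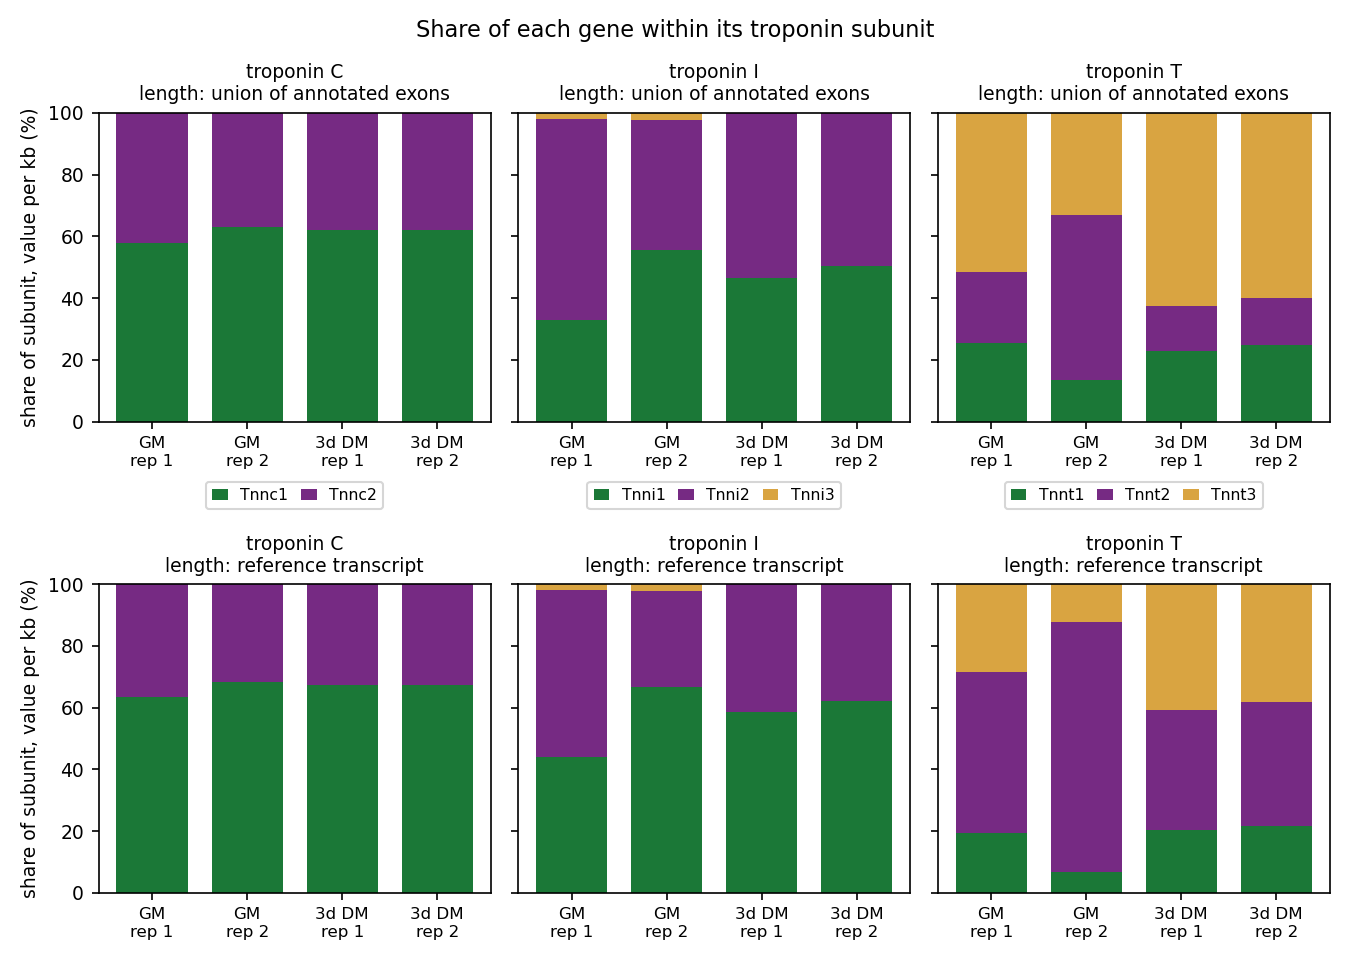
Share of each gene within troponin C, I and T, as percent of the summed value per kb, in each input library, with the exon union (top) or the reference transcript (bottom) as the length. The troponin C bars are alike in all 4 libraries, the *Tnnt2* part is smaller in both 3d DM libraries than in both GM libraries for either length, and GM replicates 1 and 2 differ most in troponin I and T.

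The family holds 3 pairs of genes that lie side by side in the genome (mm10). *Tnni1* and *Tnnt2* on chromosome 1 are 25.4 kb apart with *Lad1* between them, *Tnni2* and *Tnnt3* on chromosome 7 are 54.4 kb apart with *Lsp1* between them, and *Tnnt1* and *Tnni3* on chromosome 7 are 1.92 kb apart with no annotated protein-coding gene between. In the first 2 pairs both genes rose. In the third only *Tnnt1* did, and *Tnni3*, next to it on the same strand, stayed at values of 3.03 to 15.97. *Lsp1* had 1058 and 578 in GM against 1064 and 1450 in 3d DM (limma adjusted p = 0.340), and *Lad1* did not exceed 3.41 in any library. Of the outer neighbours, *Phlda3*, *Pkp1*, *Mrpl23* and *Ppp1r12c* were not called, *Syt5* was under 4.3 in all libraries, and *Syt8*, beside *Tnni2*, rose from 8.52 and 2.02 to 80.8 and 112 (log2 fold change 4.16, limma adjusted p = 1.23e-08).

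*Tnnc2* overlaps *Ube2c*, a ubiquitin-conjugating enzyme of mitosis, on the opposite strand, and 592 of the 700 nt of its reference transcript lie within annotated *Ube2c* exons. *Ube2c* moved the other way, from 1361 and 1549 in GM to 89.3 and 194 in 3d DM (log2 fold change −3.45, limma adjusted p = 8.05e-13). The libraries were made with a stranded kit, but whether the counting used strand is not given in the sources used here, so the reads of this pair cannot be told apart here. *Tnnc1* overlaps *Nisch* and *Tnnt3* overlaps *Prr33*, both on the opposite strand, with no base of the reference transcripts in their exons. Between members, the longest identical run of 2 reference transcripts was 22 nt (*Tnni1* and *Tnni2*).

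The other genes of the contractile programme were counted by list, and the background of calls is that given above, 7.01% higher and 9.96% lower. Of 24 partners of troponin on the thin filament, 21 were tested, 13 rose and 1 fell, with a median log2 fold change of 2.96. Largest were *Lmod2*, a nucleator of actin filaments (5.81, SE 0.49), the cardiac actin gene *Actc1* (5.67, SE 0.42) and the skeletal actin gene *Acta1* (5.56, SE 0.40). The gene that fell was *Tpm4*, a tropomyosin of non-muscle cells (−1.63, SE 0.40), while *Tpm2*, a tropomyosin of muscle, rose by 2.96 (SE 0.40).

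Of 13 fast fibre genes, 12 were tested, 11 rose and none fell, and the median log2 fold change was 5.44. Largest were *Casq1*, which stores calcium (6.30, SE 0.52), *Mybpc2*, a myosin-binding protein (6.10, SE 0.70), and the myosin heavy chain gene *Myh4* (6.08, SE 0.50). Of 20 slow fibre and cardiac genes, 12 were tested, 11 rose and none fell, with a median of 6.14. Largest were *Myl2*, a myosin light chain gene listed at 0 in both GM libraries and at 507 and 322 in 3d DM, *Myl4*, an atrial and embryonic light chain gene (7.46, SE 0.42), and *Csrp3*, a protein of the Z-disc (6.61, SE 0.53). *Csrp3* was also low in GM, at 11.7 and 4.02. The cardiac genes *Myl7*, *Sln* and *Ryr2* were under 1 in every library. Of 6 cardiac muscle markers, 2 were tested and only *Myh6* rose, and *Tbx5* was at 0.

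Of 17 genes that supply calcium to troponin C, 16 were tested, 13 rose and none fell, with a median log2 fold change of 2.87. Largest were the calsequestrin genes *Casq2* (6.49, SE 0.43) and *Casq1* (6.30, SE 0.52) and *Cacna1s*, the voltage sensor of the T-tubule (6.11, SE 0.47). Of 20 regulators of muscle gene transcription, 14 were tested, 5 rose and 1 fell, with a median of −0.18. *Mef2c* (5.02, SE 0.45) and *Myog* (4.06, SE 0.42) rose most and *Tead4* rose by 2.28 (SE 0.45). *Myf5*, a factor of undifferentiated myoblasts, was the gene that fell (−2.14, SE 0.48).

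The 5 tested genes whose centred log2 profile over the 4 input libraries was nearest to the members' median profile were *Mylpf*, *Pygm*, *Acta1*, *Ckm* and *Prkag3*. The Euclidean distance was 0.16 for *Mylpf*, a fast myosin light chain gene, which read 2055 and 438 in GM against 52875 and 49642 in 3d DM, and 0.35 to 0.44 for the other 4. Among the members themselves, *Tnnt3* was nearest to the median profile (0.15) and *Tnnt2* farthest (2.18).

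Other lineages that such cultures might hold were checked by 4 markers each. *Adipoq*, *Plin1* and *Fabp4* of adipocytes were listed at 0 and the list summed to 44.5 to 146, all of it *Pparg*, which fell (log2 fold change −1.57, limma adjusted p = 0.0218). Osteoblast markers summed to 239.9 to 674, nearly all *Runx2*, and smooth muscle markers to 827 to 1436, nearly all *Smtn*, and none of these was called. Markers of endothelium and leukocytes summed to 2.29 or less. The part of such cells in the members' values was not tested.

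The m6A peak lists ask where on the troponin mRNAs the antibody enriched fragments. Each list was called by the authors in 1 precipitated library against its own input, and gives per transcript a fold, the ratio of precipitated over input RNA, and a p-value. Of the 8 members, 7 had a peak in all 4 lists, as had 42% of tested genes and 54.5% of the genes with a peak in any list. *Tnni3*, the member of low expression, had none.

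**Figure D4:**
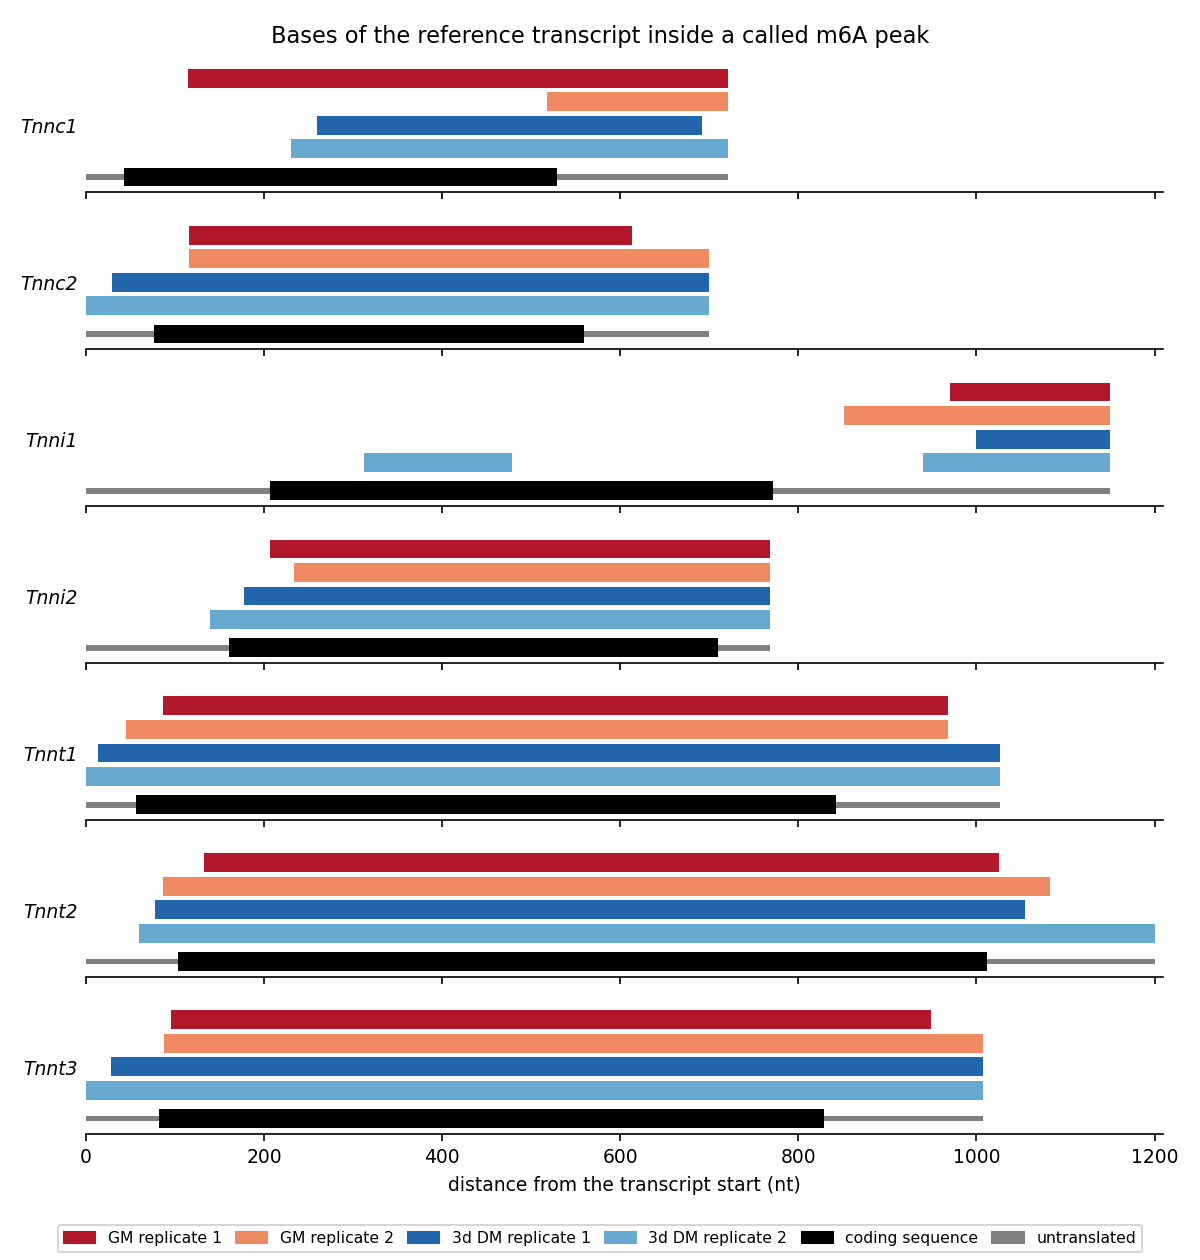
Bases inside a called m6A peak along the reference transcript of 7 troponin genes, 1 coloured bar per library, by distance from the transcript start in nt, with the coding sequence in black and untranslated parts in grey. Peaks span nearly the whole coding sequence in the 3 troponin T genes, *Tnnc2* and *Tnni2*, and lie at the 3′ end in *Tnni1*, with a second peak in the coding sequence in 3d DM replicate 2. In *Tnnc1* they run from 28.2% to 84.0% of the transcript.

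In the troponin T genes the peaks covered most of the mRNA. In *Tnnt1* they took up 85.9% and 89.9% of the reference transcript in the GM lists and 98.6% and 100% in the 3d DM lists. In *Tnnt3* the values were 84.7% and 91.3% in GM against 97.2% and 100% in 3d DM, and in *Tnnt2* they were 74.3% and 83.1% in GM against 81.4% and 95.0% in 3d DM. In each of the 3 genes at least 96.2% of the coding sequence was inside the peak in all 4 lists, including the stretches printed above. All 23 lines of *Tnnt3*, 1 per protein-coding transcript, covered at least 80% of their transcript in 3 lists and 21 did in GM replicate 1. These lines share bases and merge into 1 region, so they are not separate observations. Over all genes, lines covering at least 80% of their transcript were 1.15% and 0.945% of the GM lists and 0.858% of either 3d DM list. On transcripts of up to 1200 nt they were 8.14% and 7.08% in GM against 7.21% and 6.3% in 3d DM.

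*Tnnc2* had peaks over 71% and 83.4% of the transcript in GM against 95.9% and 100% in 3d DM, and *Tnni2* over 73.0% and 69.5% in GM against 77.0% and 81.9% in 3d DM. For *Tnnc2*, 592 of 700 nt lie in *Ube2c* exons of the other strand, so its peaks may hold *Ube2c* reads, which was not tested. *Tnnc1* was uneven, with 84.0% and 28.2% in GM against 60.1% and 68.1% in 3d DM. The part shared by all 4 lists was 174 nt, mostly 3′ UTR, and holds the GGACT window shown above. *Tnni1* differed from the rest of the family: its shared peak took up 150 nt at the end of the 3′ UTR, and no base of its coding sequence was covered in all 4 lists. A coding peak in *Tnni1* was listed only in 3d DM replicate 2, with a highest fold of 1.31.

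Enrichment was read as the highest fold of any line in the peak region of a gene. *Tnnt3* showed folds of 19.2 and 17.2 in GM against 4.9 and 7.93 in 3d DM. *Tnnt2* had 12.2 and 9 in GM against 4.78 and 7.24 in 3d DM, and *Tnnt1* had 12.2 and 6.33 in GM against 4.47 and 4.53 in 3d DM. The troponin T genes thus had the highest folds of the family in every list, also when only the line of the reference transcript was read. Their folds are the highest of 9 to 23 lines, against 1 line in the troponin C genes. The median fold over all lines of a list was 3.7 to 4.37, which is not a measure of highest lines.

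The calcium sensor and inhibitor genes were lower. *Tnnc2* had 6.39 and 3.55 in GM against 3 and 2.82 in 3d DM, *Tnni2* had 5.69 and 2.55 in GM against 2.02 and 2.51 in 3d DM, and *Tnni1* had 4.67 and 3.35 in GM against 1.78 and 2.97 in 3d DM. *Tnnc1* had 6.12 and 2.27 in GM against 1.74 and 2.27 in 3d DM. All 4 were under the median fold of their list in both 3d DM lists. The *Tnnc2* folds may hold *Ube2c* reads in the precipitated and the input RNA, which was not tested.

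**Figure D5:**
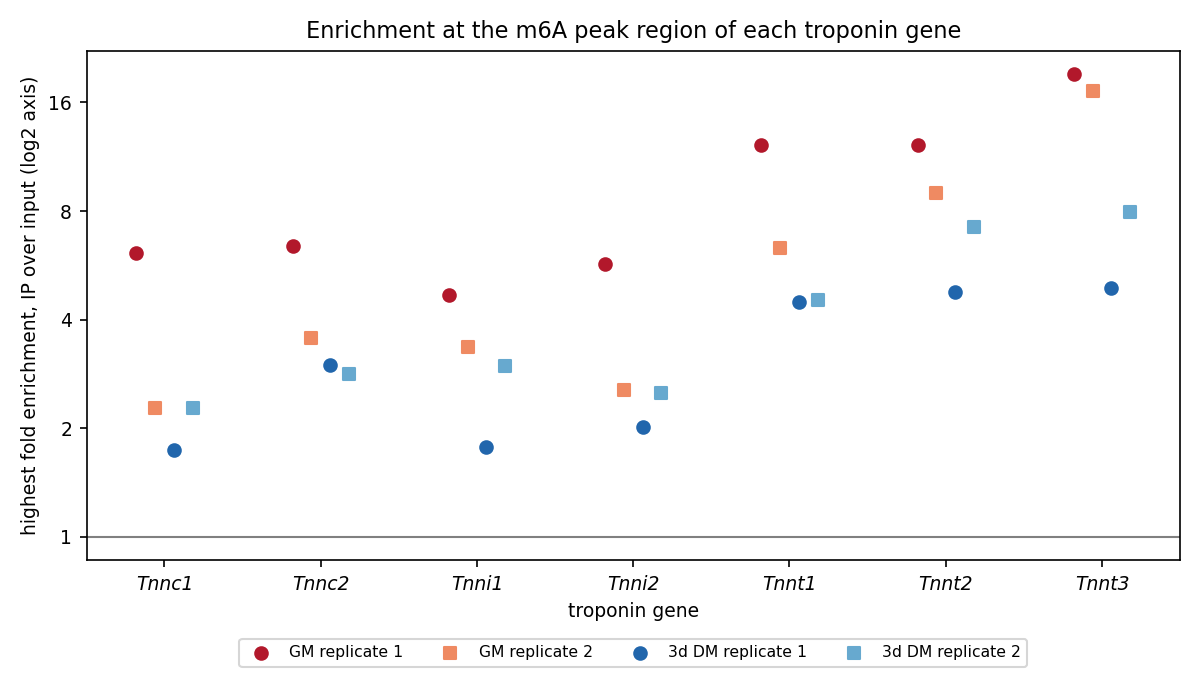
Highest fold enrichment of precipitated over input RNA (log2 axis) at the m6A peak region of 7 troponin genes, 1 point per library. Both GM points lie above both 3d DM points in 6 genes, by little in *Tnni2*, *Tnnc1* ties at 2.27, and GM replicate 1 is the highest point in all 7.

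In 6 of the 7 genes, counting *Tnnc2* with its *Ube2c* overlap, both GM folds were above both 3d DM folds, the exception being *Tnnc1*. The same was seen in 21.7% of 5976 merged regions present in all 4 lists, and the reverse in 9.22%. On other genes with a log2 fold change of 3 or more in expression and an adjusted p under 0.05, which were 2.81% of all tested genes counting the members, it was seen in 19 of 45 regions (42.2%). The median log2 difference, GM minus 3d DM, was 0.83 over the troponin regions, 0.62 over those 45 regions and 0.11 over all regions. For each gene the exact permutation test gave p = 0.333, or 0.667 for *Tnnc1*, and cannot go lower than 0.333.

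The fold of the GM peaks moved with GM replicate 1, which had the highest fold in all 7 genes and also the higher troponin expression of the GM inputs. Without that library the log2 difference, GM minus 3d DM, was 0.18 in *Tnni2*, 0.19 in *Tnnc1*, 0.29 in *Tnnc2*, 0.49 in *Tnnt1*, 0.54 in *Tnni1*, 0.61 in *Tnnt2* and 1.46 in *Tnnt3*, against 0.71 to 1.54 with both GM libraries. With the line of the reference transcript in place of the highest line, *Tnni2* overlapped between states (5.69 and 2.16 in GM, 1.88 and 2.51 in 3d DM), and *Tnnt3* read 10.7 and 6.06 in GM against 4.88 and 5.6 in 3d DM, without overlap. *Tnnt3* has 23 annotated protein-coding transcripts, each with its own line, and its highest lines in GM are 19.2 and 17.2 while the medians of its lines are 11.4 and 5.73. The expression of 7 of the members was 11.8 to 34.0 times higher in 3d DM at the least, and its part in the folds and in the breadth of the peaks was not tested.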

How the data were processed

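MeRIP-seq and input RNA-seq of C2C12 cells in GM and 3d DM, 2 libraries of each kind per state, were analysed from the processed files, grouped by their labels. The authors aligned reads to mm10 (HISAT2 2.1.0, per the labels) and ran exomePeak on every precipitated library with its matching input. The deposited peak lists give a fold ratio and a p-value per transcript. The deposited expression table holds a normalized signal named for trimmed-mean scaling, and the submitters' processing notes name edgeR. Its values are not whole reads and carry no depth, so the count test of the methods could not be run, no counting interval is given. Low values recur as exact pairs over genes within a state (97.3% of genes in GM, 97.4% in 3d DM) more than between states (35.6% and 39.7%), as quantile-adjusted pseudo-counts would. How far normalization changed the replicate spread cannot be seen.

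Values were tested as log2(value + 1) with limma 3.58.1 (R 4.3.3, lmFit and eBayes with an intensity trend, state as the only term, two-sided, Benjamini-Hochberg over 11406 genes, threshold 0.05). The filter was 2 cpm of the column total in 2 libraries. On simulated data of 11406 genes for 3d DM against GM with 2 libraries each, the step called 188 of 200 genes with a planted fold of 4, and 5 unchanged genes. The simulated spread was set by the level of a gene alone, as the fit assumes. In the real data 25.3% of tested genes had an own error above that of limma, so these counts give no error rate for them. Symbols came from RefSeq by Entrez identifier (98.7% of tested genes). Reference transcripts are APPRIS principal transcripts of GENCODE M21, and all 8 matched the GRCm38.p6 genome base for base. Peak lines on 1 strand sharing 1 bp were merged into regions. Sequence searches and peak counts used Python 3.11.15, numpy 2.4.6 and pandas 2.3.3.

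The members and all gene lists were chosen with earlier results of these data known. From each list, at most 3 called genes of largest change were named, besides counts. Other genes (*Tpm1*, *Tpm2*, *Tpm3*, *Tpm4*, *Myf5*, *Dnaaf3*, *Nisch*, *Prr33*, *Ube2c* and the genomic neighbours) were named after their values were seen. Some members of the list on calcium supply are not reported here by name. Alternatives were other filters, pseudocounts of 0.1 and 4, a replicate block, limma without the trend, 2 rescalings, peak thresholds of 1e-05 and a fold of 4, peaks with a single region label, 50% sharing, the line of lowest p, other lengths and each library left out. The line and the length of the reference transcript were added after seeing the data.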

Additional observations from a re-analysis of the deposited data

How the results depend on the processing

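Of the 1936 genes called in the comparison of 3d DM with GM (800 higher, 1136 lower), the calls fell to 1250 (422 higher) when 2 cpm was required in all 4 libraries, and those higher numbered 524 when it was required in 3. Rescaling by median-of-ratios or trimmed-mean factors gave 1369 or 1340 higher genes, 51.8% or 50.3% of the calls against 41.3%. Leaving out a library gave 145 to 1252 calls, with 101 to 679 higher and 44 to 573 lower, the fewest without 3d DM replicate 1. In each of the filters, pseudocounts and rescalings, without the trend and in the replicate block, all 7 tested troponin genes were called higher, with limma adjusted p-values no lower than 0.00110 under either rescaling. Leaving out a library left 3 to 7 of them, all 7 without either GM replicate, and fewer without a 3d DM replicate, where the remaining 3d DM library is assumed to vary like GM. Same-numbered libraries of the 2 states deviated together with r = 0.29 across genes. The titles of replicate 2 share that number in both states, those of replicate 1 share a form of name without a number, and neither states a pairing. With the replicate block 1298 genes were called, 705 of them lower.

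The 7 members with a peak in every list became 3 in GM replicate 2 and in both 3d DM lists at a fold of at least 4, with 7 in GM replicate 1, and became 5 in each GM list and 4 in each 3d DM list where a line had to name a single region. The log2 fold difference of enrichment, GM minus 3d DM, became 0.33 in *Tnnt2* (from 0.83) and 0.60 in *Tnnt3* (from 1.54) with the line of lowest p, and 0.34 and 0.62 with the line of the reference transcript. Of 250 alternative values 219 stayed within 1.5 times (counts), on their side of the threshold (tests) or within 1 SD (other values). With 2 libraries a state, leaving 1 out always moves a mean by less than 1 SD. Shares and enrichment differences without a library were therefore counted as unchanged by construction. The differences in share of *Tnnc1*, *Tnnc2*, *Tnni1* and *Tnni2* changed sign without GM replicate 1 and that of *Tnnt1* without GM replicate 2. None of these shares carried a call, and the 1 SD rule could not mark the changes. The share of *Tnni3* in troponin I fell by 2.89 percentage points with the longest transcript as length (2.16 with the exon union). With 2 libraries a state and no read numbers, differences between neighbouring members and between states in enrichment were limited to descriptions.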
